A study of Mus musculus with 2 samples.

Results

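Footprint-dense peaks are sites of open chromatin in which many short stretches of DNA were protected from DNase I. They were chosen by a measured value, the number of footprints: a peak on chromosomes 1 to 19 belonged to the set when it wholly contained at least 8 footprints called in the same library. This rule took 871 of 28969 peaks in replicate 1 (3.01%, 95% Wilson interval 2.82 to 3.21%) and 1960 of 64912 in replicate 2 (3.02%, 2.89 to 3.15%). Intervals given here cover counting error only.

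The peaks came from DNase-seq on the frontal cortex of female mice of the strain B6CASTF1/J, a first-generation cross of the B6 and CAST mouse strains, aged 36 days. There was 1 group without any treatment or contrast, with 2 libraries labelled biological replicates 1 and 2, from separately recorded tissue samples under a single donor label. Whether the samples are of 2 animals is not stated, so the spread between the libraries may be technical. The tissue mixes neurons, glia and vascular cells, so few cells with an open site and weak opening in many cells cannot be told apart. With 1 group of 2 libraries no test between groups exists, peaks within a library are not replicates, and all values below are descriptions without p-values.

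DNase I cuts DNA that is not wrapped in nucleosomes, and regions with many cuts are called as peaks. Inside a peak, a protein bound to DNA shields a few bases, and such a local dip in cutting is called a footprint. Promoters, where transcription starts, bind many sequence-specific factors side by side, whereas the factor that leaves a footprint is not named by the assay itself.

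The sequences of 4 footprint-dense peaks are shown so that the arrangement of the protected stretches can be read directly. They are examples from the peaks described below, 2 at promoters and 2 away from them, each as a window of 200 bases. Each is the RefSeq GRCm38 reference (C57BL/6J) on the plus strand, 5′ to 3′. The CAST allele was not analysed here. Capitals mark bases that lay inside footprints of both replicates.
Nsun2 chr13:69611668-69611867: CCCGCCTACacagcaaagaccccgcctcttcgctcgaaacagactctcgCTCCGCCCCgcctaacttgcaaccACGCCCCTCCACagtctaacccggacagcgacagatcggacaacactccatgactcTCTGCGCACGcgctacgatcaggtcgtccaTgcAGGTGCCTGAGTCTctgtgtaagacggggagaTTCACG
Csnk1g2 chr10:80622501-80622700: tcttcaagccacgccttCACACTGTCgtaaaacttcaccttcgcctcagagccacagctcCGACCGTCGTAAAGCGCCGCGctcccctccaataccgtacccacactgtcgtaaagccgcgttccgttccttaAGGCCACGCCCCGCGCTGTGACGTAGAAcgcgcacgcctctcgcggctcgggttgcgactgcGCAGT
Fbrs chr7:127478405-127478604: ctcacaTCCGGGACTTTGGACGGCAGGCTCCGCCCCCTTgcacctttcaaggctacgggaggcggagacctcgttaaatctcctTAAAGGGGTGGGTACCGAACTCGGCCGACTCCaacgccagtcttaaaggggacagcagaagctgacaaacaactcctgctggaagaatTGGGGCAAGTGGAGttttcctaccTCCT
Zc3h4 chr7:16400002-16400201: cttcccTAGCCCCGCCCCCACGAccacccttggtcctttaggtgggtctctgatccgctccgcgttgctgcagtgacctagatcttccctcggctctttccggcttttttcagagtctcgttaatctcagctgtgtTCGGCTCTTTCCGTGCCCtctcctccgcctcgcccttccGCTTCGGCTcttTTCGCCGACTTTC

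The windows held 57 to 83 bases that were protected in both libraries. The Nsun2 window had 61 such bases in 7 runs. Csnk1g2, Fbrs and Zc3h4 had 63, 83 and 57 bases in 4 runs each. An exact match to the SP/KLF box (GGGCGG on either strand), the GC box bound by Sp and Klf factors, was centred in capitals at Nsun2, Fbrs and Zc3h4. At Nsun2 a match to the NRF1 consensus was also centred in capitals.

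The counts ran from the minimum of 8 to 16 footprints per peak in replicate 1 and to 24 in replicate 2. The median was 9 footprints in both, where all peaks had a median of 2. In replicate 1, 421 of the dense peaks held exactly 8 footprints and 67 held at least 12. In replicate 2 these numbers were 834 and 210. The numbers of peaks fell smoothly through the minimum of the rule, without a gap between dense and other peaks. In replicate 1 the 666 peaks with 7 footprints had a median width of 380 bp, a median signal of 2.65 and a promoter share of 87.8%, and the 421 with 8 footprints had 420 bp, 2.75 and 91.0%. In replicate 2 the 1479 peaks with 7 footprints had 360 bp, 3.39 and 74.6%, and the 834 with 8 had 400 bp, 3.29 and 79.9%. Peaks just inside and just outside the rule were thus close in each of these measures.

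**Figure D1:**
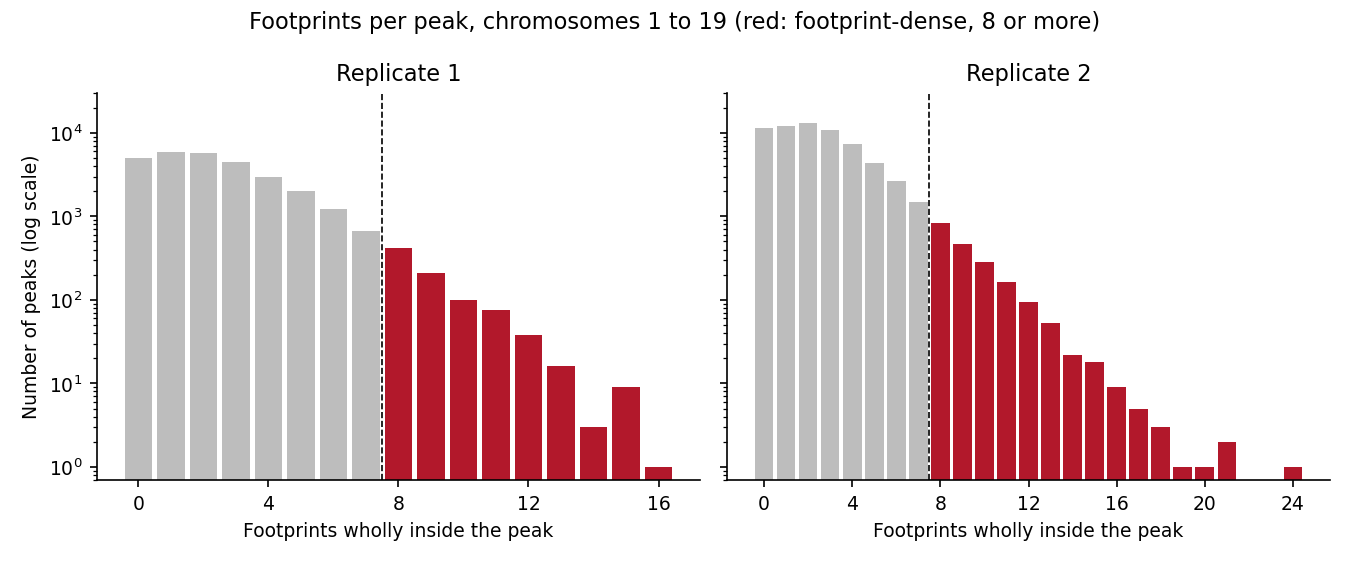
Number of peaks on chromosomes 1 to 19 (vertical axis, log scale) by the number of footprints wholly inside the peak (horizontal axis), for replicate 1 on the left and replicate 2 on the right. Red bars right of the dashed line are the 871 and 1960 footprint-dense peaks, and the counts fall without a gap at the line.

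Dense peaks were wide, and a wide peak has room for more footprints. The part of width in the counts was not tested. Their median width was 480 bp (220 to 1629) in replicate 1 and 460 bp (200 to 2340) in replicate 2, and the median of all peaks was 200 bp. They made up 6.92% and 6.73% of all peak bases. They held 7887 and 18002 footprints, which were 11.1% of the 71126 and 11.1% of the 162546 footprints wholly inside any peak. For this reason dense peaks were compared with peaks of the same 50 bp width class that held 1 to 3 footprints, with each class weighted by its number of dense peaks. In replicate 1, 852 dense peaks in 18 width classes had such a counterpart among 7019 peaks, and in replicate 2, 1944 dense peaks in 21 classes among 16971. Of the comparison peaks of any width, 133 and 196 overlapped a dense peak, since the lists hold some overlapping peaks.

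Most footprint-dense peaks lay at promoters, taken as a peak midpoint within 500 bp of an annotated transcription start site (TSS). In replicate 1 this was so for 787 of 871 (90.4%, 88.2 to 92.1%) and in replicate 2 for 1591 of 1960 (81.2%, 79.4 to 82.8%). Among all peaks of the lists the shares were 50.9% and 31.0%. In replicate 1, 17 dense peaks had their midpoint in an exon, 28 in an intron and 39 between genes. In replicate 2 these numbers were 68, 152 and 149.

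The promoter share of dense peaks was above that of equally wide peaks with 1 to 3 footprints. In replicate 1 it was 90.6% against 69.7% (interval of the weighted comparison 66.3 to 73.1%), a difference of 20.9 percentage points. In replicate 2 it was 81.3% against 43.8% (41.7 to 45.9%), a difference of 37.5 points. The mean difference was 29.2 ± 11.7 points (SD, n = 2), so the libraries differed widely in its size and shared its direction. Among width classes with at least 20 peaks of each kind, dense peaks had the higher share in 8 of 8 classes in replicate 1, from 250 to 649 bp. In replicate 2 the share was higher in 11 of 11 classes, from 200 to 749 bp. The intervals of dense and comparison peaks did not overlap in 7 and 9 of these classes. The difference per class ran from 12.1 to 29.4 points in replicate 1 and from 5.77 to 65.7 points in replicate 2.

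**Figure D2:**
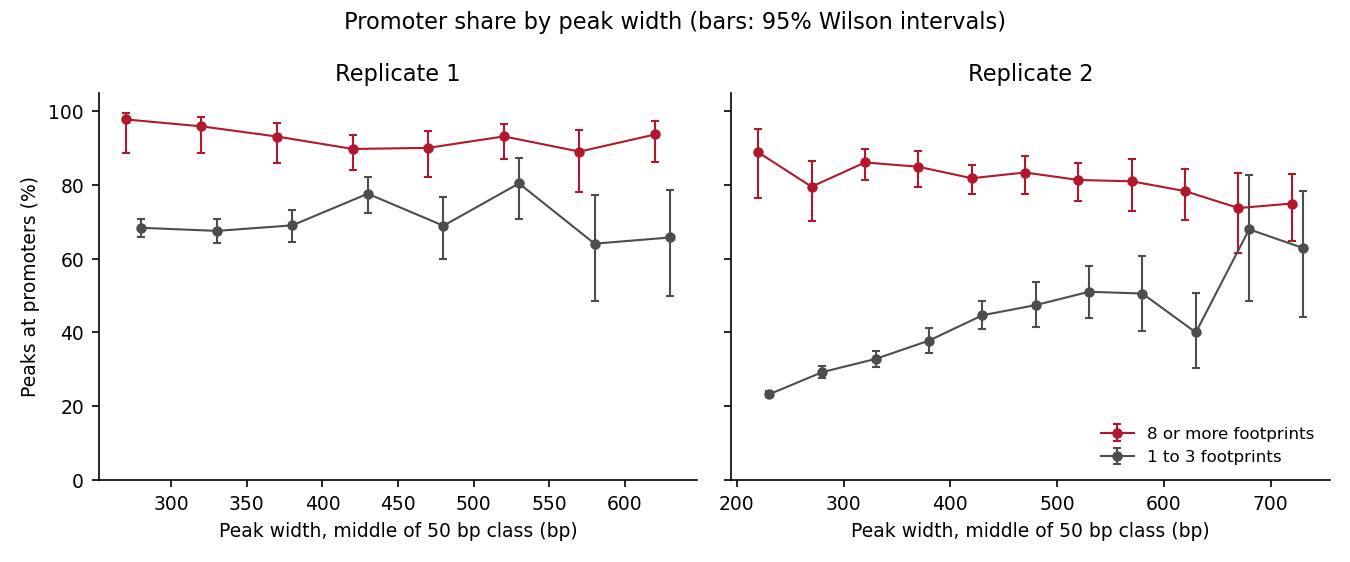
Percentage of peaks with their midpoint within 500 bp of a TSS (vertical axis) by peak width (horizontal axis, middle of the 50 bp class), for dense peaks in red and peaks with 1 to 3 footprints in grey, in classes with at least 20 peaks of each kind. Bars are 95% Wilson intervals; the red points lie above the grey ones in 8 of 8 classes in replicate 1 and in 11 of 11 in replicate 2.

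Dense peaks were also among the strongest, and this bears on the promoter share. The authors' peak signal is a density of cuts normalized for read depth; it comes from the same reads as the footprints, so it is not independent of the rule. Dense peaks had a median signal of 2.84 (0.848 to 9.83) in replicate 1 and 3.26 (0.592 to 14.5) in replicate 2. All peaks had medians of 1.35 and 1.18. In replicate 1, 47 dense peaks (5.40%) lay below the median of the list, and in replicate 2 92 (4.69%) did. The top 10% of each list by signal held 41.8% and 41.6% of the dense peaks, although 12.6% of the peaks in that class were dense in each library. A strong signal was therefore common to dense peaks but did not by itself go with 8 footprints.

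Against equally wide peaks with 1 to 3 footprints, the weighted median signal was 2.84 against 1.35 in replicate 1 and 3.35 against 1.22 in replicate 2. The log2 ratios were 1.07 and 1.45, with a mean of 1.26 ± 0.27 (SD, n = 2). The signal of the overlapping peak in the other library, which did not choose the peaks, showed a difference of like size. At replicate 1 dense peaks the replicate 2 signal was 5.05 against 2.27 (log2 ratio 1.15), and at replicate 2 dense peaks the replicate 1 signal was 2.11 against 1.04 (1.03). Only peaks with a partner entered this comparison, and the loss was unequal. In replicate 1, 851 of 852 dense and 6796 of 7019 comparison peaks had one, and in replicate 2, 1720 of 1944 dense and 7640 of 16971 comparison peaks.

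**Figure D3:**
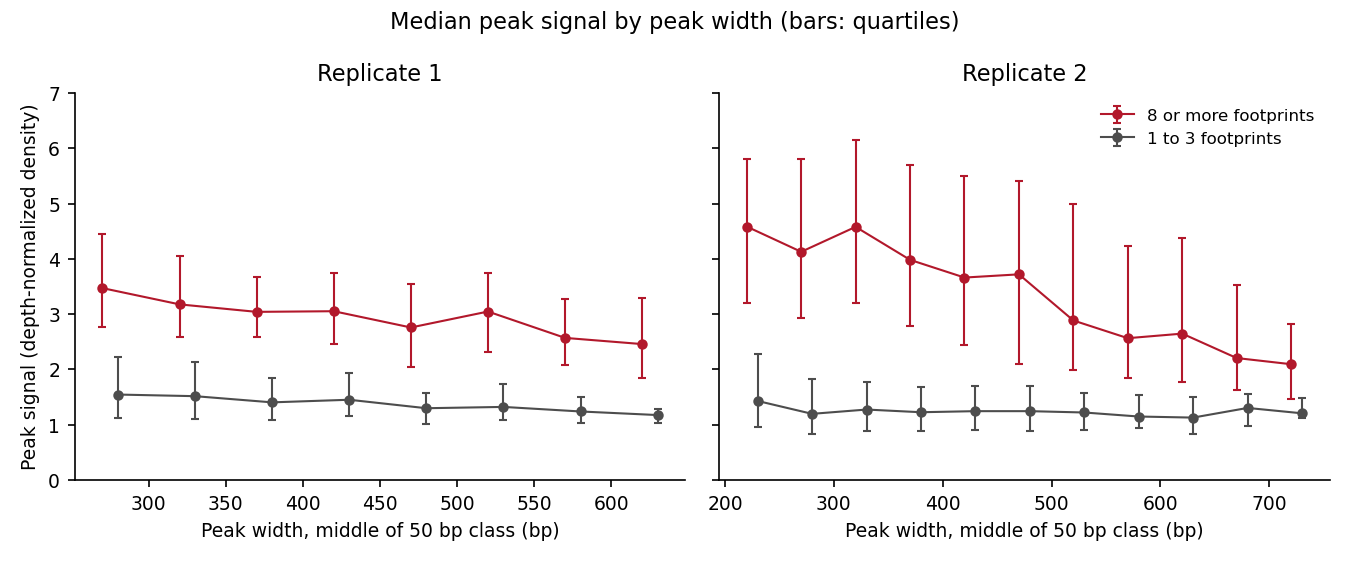
Median peak signal (vertical axis, read-depth normalized density) by peak width (horizontal axis, middle of the 50 bp class) for dense peaks in red and peaks with 1 to 3 footprints in grey; bars run from the lower to the upper quartile. Dense peaks have the higher median in 8 of 8 classes in replicate 1 and in 11 of 11 in replicate 2.

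When the comparison peaks were matched on width and also on signal decile within the list, most of the difference in promoter share was gone. Dense peaks were then at promoters in 90.3% against 87.3% of cases in replicate 1 (702 dense and 3439 comparison peaks) and in 79.9% against 70.5% in replicate 2 (1646 and 11695 peaks). The differences of 3.05 and 9.35 points had a mean of 6.20 ± 4.46 (SD, n = 2). Within the deciles dense peaks still had a somewhat higher signal, 2.88 against 2.64 and 3.50 against 3.04. The part of signal in the promoter share was not tested beyond these values.

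Peaks with protein-coding TSSs on both strands within 500 bp of the midpoint were more frequent among dense than among comparison peaks. Whether such TSSs point away from each other was not examined. These peaks made up 14.8% of dense peaks against 5.01% of equally wide peaks in replicate 1, and 10.6% against 1.37% in replicate 2. With signal matched as well, the shares were 14.1% against 10.5% and 9.96% against 4.97%.

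Base composition moved with these classes. Dense peaks had a weighted median GC content of 64.9% against 63.4% in replicate 1 and 65.0% against 57.5% in replicate 2. With signal matched too, the values were 65.1% against 63.0% and 64.8% against 62.3%. The ratio of observed to expected CpG dinucleotides, which is high in CpG islands, was 0.843 against 0.746 in replicate 1 and 0.813 against 0.533 in replicate 2. With comparison peaks of the same width and GC content, the promoter share of dense peaks was higher by 14.7 and 16.3 points.

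The label of a dense peak was only partly carried over to the other library. Of the 871 dense peaks of replicate 1, 870 shared at least 1 bp with a replicate 2 peak, but in 345 cases (39.6%, 36.4 to 42.9%) that peak was itself dense. Of the 1960 dense peaks of replicate 2, 1750 shared bases with a replicate 1 peak and 354 of these were dense (18.1% of 1960, 16.4 to 19.8%). The mean of the 2 directions was 28.8 ± 15.2% (SD, n = 2). Both directions count nearly the same shared peaks, 345 and 354, over 871 and 1960 dense peaks. This SD is therefore not a spread between independent measurements. Counted as places in the genome, 2439 were dense in either library, 347 in both, 519 in replicate 1 alone and 1573 in replicate 2 alone.

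This repeat of the call rose with the footprint count. It was 23.1% for replicate 1 peaks with 7 footprints, 32.8% with 8 and 62.7% with at least 12. For replicate 2 peaks it was 8.25%, 13.3% and 32.9%. Peaks with 1 to 3 footprints of any width had a dense partner in 4.32% and 0.413% of cases. Replicate 2 had 245445 footprints on these chromosomes and replicate 1 had 110333, and the part of this difference in the unequal shares was not tested.

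Footprints of the other library inside the very same interval gave a measure free of that library's own peak boundaries. Dense peaks of replicate 1 held a weighted median of 8.06 replicate 2 footprints, against 4.74 in equally wide peaks with 1 to 3 footprints. Dense peaks of replicate 2 held 5.26 replicate 1 footprints against 1.18. With signal matched too, the values were 7.62 against 5.35 and 4.69 against 2.82. In the library that did not choose them, dense peaks thus kept more footprints than comparison peaks of the same width class and signal decile. Peaks without a partner in the other library were counted here too. A partner was present for 89.3% of replicate 2 dense peaks, and for 33.6% of replicate 2 comparison peaks of any width. The part of missing partners in these counts was not tested. Single footprints were found again, by an overlap of at least 1 bp, in 61.5% of cases in replicate 1 dense peaks and in 61.2% in comparison peaks. In replicate 2 the shares were 37.7% and 26.5%. In replicate 1 the repeat of a single footprint was therefore about as frequent in dense as in comparison peaks. An overlap is met more often where the other library's footprints cover more bases. This coverage was on average 23.0% of replicate 1 dense peaks against 18.6% of comparison peaks. For replicate 2 peaks it was 13.4% against 6.43%. The part of coverage in these repeats was not tested.

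The footprints in dense peaks were narrow and close together. Their median width was 9 bp in both libraries, against 10 bp in comparison peaks of the same width classes. Footprints of at least 25 bp were 3.13% and 3.60% of those in dense peaks and 12% and 10.3% of those in comparison peaks. The median spacing between neighbouring footprints was 40 and 39 bp, against 60 and 59 bp. Footprints covered 21.1% and 22.5% of the bases of dense peaks, against 5.07% and 5.0%. A count of footprints favours narrow and closely packed ones, so these values follow in part from the rule. Apart from the bases covered, the comparison values here were pooled without width weights. Of the comparison peaks, 3909 of 7019 and 9721 of 16971 were only 200 to 249 bp wide.

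In promoter peaks of both sets, more footprints lay upstream than downstream of the TSS. For 639 dense peaks in replicate 1 and 1322 in replicate 2 with protein-coding TSSs on 1 strand only, 65.3% and 60.0% of footprints had their midpoint upstream of the TSS, at a median offset of -67.5 and -45 bp. In the 200 bp upstream, dense peaks held 21.3 and 22.1 footprints per kb of peak sequence, against 9.83 and 9.995 in comparison promoter peaks. In the 200 bp downstream, where the initiating polymerase and the first nucleosome are found, they held 17.9 and 19.5 per kb against 7.03 and 7.06. In dense peaks the 25 bp bin from -50 to -26 held 23.5 and 24.0 footprints per kb, and the next bin, from -25 to -1, held 22.3 and 23.6. Dense peaks stayed well above comparison peaks on both sides of the TSS, as their choice by count requires, and the upstream side was higher in both sets. The comparison promoter peaks were not weighted by width here.

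**Figure D4:**
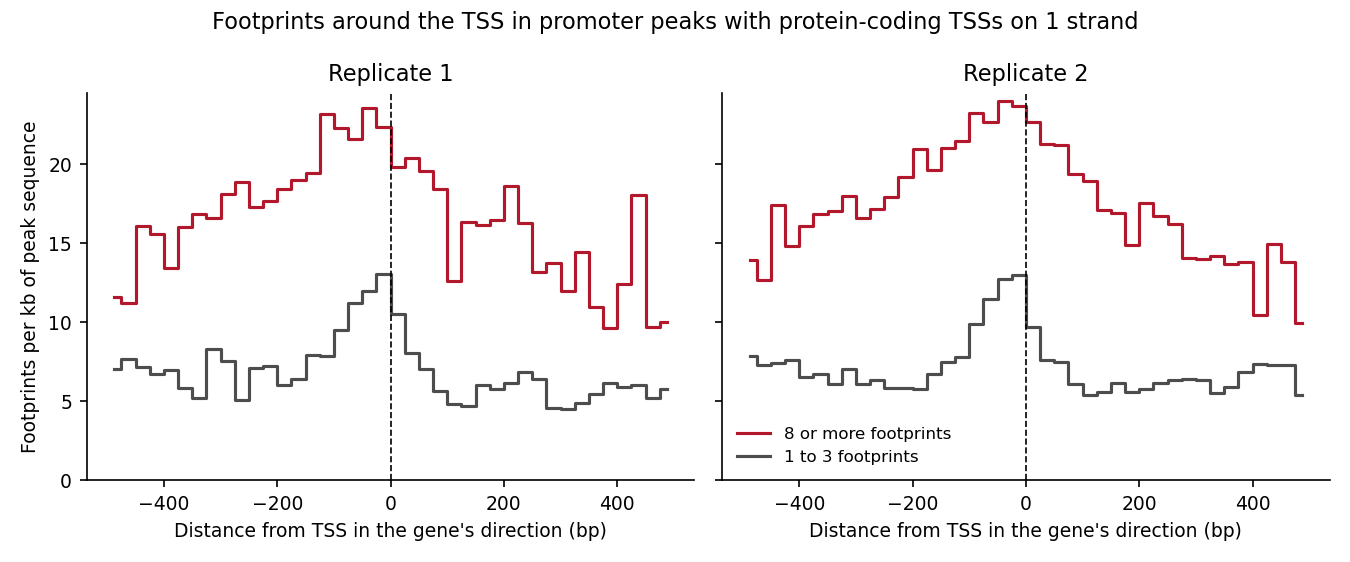
Footprints per kb of peak sequence (vertical axis) by distance from the TSS in the gene's direction (horizontal axis, 25 bp bins) in promoter peaks with protein-coding TSSs on 1 strand, for dense peaks in red and peaks with 1 to 3 footprints in grey. Both curves are highest near the TSS, where the dense peaks reach 23.5 and 24.0 per kb in the bin from -50 to -26.

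Exact matches to 20 short consensus sequences (motifs) were counted on both strands of the reference. Some overlap: the short form TGACGNNA contains the full cAMP response element TGACGTCA, and the CTCF core contains AGGGGGC. A match is a description of letters and not a binding site. Compared with equally wide peaks, 14 motifs were found in a larger share of dense peaks in both libraries, 3 in a smaller share, and 3 differed in direction between libraries. With signal matched too, these numbers were 12, 2 and 6.

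The NRF1 consensus, the palindrome bound by nuclear respiratory factor 1, was more frequent in dense peaks under both comparisons. It was present in 178 dense peaks (20.4%) of replicate 1 against 5.49% of equally wide peaks, and in 295 (15.1%) of replicate 2 against 1.16%. With signal matched it was 20.2% against 12% and 14.0% against 5.29%. Within dense peaks its matches were 14.5-fold and 26.3-fold denser per base in footprints than in the rest of the peak, with 187 of 240 and 324 of 371 matches centred in a footprint. The same ratios in comparison peaks were 14.9-fold and 21.3-fold, so both sets shared this trait. The full cAMP response element TGACGTCA, bound by CREB and ATF factors, was present in 5.74% of dense peaks against 1.06% in replicate 1 and in 4.23% against 0.789% in replicate 2. With signal matched it was 5.56% against 3.72% and 3.71% against 2.08%.

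GC boxes were the most widespread of the motifs searched. GGGCGG was present in 85.1% of replicate 1 dense peaks against 68.4% and in 77.3% of replicate 2 dense peaks against 46.8%. With signal matched the shares were 83.0% against 82.9% in replicate 1, which leaves no difference there, and 74.8% against 65.5% in replicate 2. A GC box was centred in 12.4% (11.7 to 13.1%) of the footprints of replicate 1 dense peaks, against 7.64% (7.23 to 8.07%) in comparison peaks. In replicate 2 the shares were 10.5% (10.1 to 10.9%) and 4.42% (4.21 to 4.63%). These comparison footprints were pooled without weighting by peak width. The CCAAT box, bound by NF-Y, turned direction with the signal: it was in 49.8% of dense peaks against 33.9% at equal width in replicate 1 and in 47.2% against 57.6% with signal matched. In replicate 2 the values were 43.3% against 35.5% and 40.5% against 44.9%.

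The E-boxes CAGATG and CAGCTG and the AP-1 element were the 3 motifs present in a smaller share of dense than of equally wide comparison peaks in both libraries. CAGATG, an E-box bound by NeuroD-type factors, was in 15.2% against 22.0% in replicate 1 and in 19% against 31.9% in replicate 2. With signal matched this held in replicate 2 (18.5% against 27.7%) and turned in replicate 1 (14.5% against 13.2%). CAGCTG was in 24.0% against 29.3% and in 25.6% against 32.5%, and turned with signal matched (21.2% against 18.4% and 24.8% against 24.4%). TGANTCA, the AP-1 element of Fos and Jun dimers, was in 5.51% against 8.33% and in 8.01% against 14.7%, and with signal matched in 4.99% against 8.16% and 7.84% against 10.5%. The core of the CTCF motif was rare in both sets and was present in 9 dense peaks of replicate 1 (1.03% against 0.471%) and 10 of replicate 2 (0.510% against 0.100%). Per footprint the order was the opposite: 0.0757% and 0.0491% of the footprints in dense peaks held the core, against 0.525% and 0.341% in comparison peaks. The shares per footprint pooled the comparison peaks without weighting by width, so the 2 comparisons are of unlike sets. The composition of these motifs differs in GC content as the peaks do, and its part in these shares was not tested.

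The 84 dense peaks of replicate 1 and 369 of replicate 2 that lay away from promoters had a lower GC content and signal than the promoter ones in both libraries. Their median GC content was 60.5% and 57.3%, against 65.3% and 66.1% at promoters, and their CpG ratio 0.690 and 0.540 against 0.850 and 0.837. Their median signal was 1.99 and 1.86 against 2.90 and 3.78. In replicate 1, 31 of them (36.9%) were dense in replicate 2 as well, close to the 39.9% of the promoter ones. In replicate 2, 32 (8.67%) were dense in replicate 1, against 20.2% of the promoter ones, and 103 of the 369 overlapped no replicate 1 peak. CAGATG was in 26.2% and 35.8% of them, against 14.0% and 15.1% of dense promoter peaks. TGANTCA was in 10.7% and 20.9%, against 4.96% and 5.03%. Few lay far from any gene start: 3 and 27 were more than 50 kb from a TSS.

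Dense promoter peaks were then assigned to genes. Of 20780 protein-coding genes on chromosomes 1 to 19, 893 (4.30%) had a dense promoter peak in replicate 1 and 1696 (8.16%) in replicate 2. In both libraries 371 genes had one, 1.79% of all genes, where 10677 genes (51.4%) had any promoter peak in both. The 371 genes were 41.5% of the replicate 1 genes and 21.9% of the replicate 2 genes, and 3.47% of the genes with a promoter peak in both.

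The promoter peaks dense in both libraries were ranked by the lower of their footprint counts, and the first 10 are described, with mm10 coordinates and counts in the order replicate 1, replicate 2. The peak of Mdga2, which encodes a membrane-anchored regulator of synapse formation, lay at chr12:67221821-67222880 in replicate 1 and held 13 and 18 footprints, with signals of 1.76 and 2.50. That of Wipi1, a phosphoinositide-binding protein of autophagy, at chr11:109611361-109612060, held 16 and 13 (signals 2.89 and 6.40). The peak of Smarca5, the ATPase of ISWI chromatin remodelling complexes, at chr8:80739241-80739860, held 15 and 13 (3.44 and 5.96). All 3 were above the median dense peak in count, as their ranking by count requires, and Mdga2 was below it in signal in both libraries.

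The peak at chr13:69611461-69612020 lay within 500 bp of TSSs of 2 genes, Nsun2, an RNA cytosine methyltransferase, and Srd5a1, a steroid 5-alpha-reductase. It held 15 and 13 footprints with signals of 4.71 and 7.57, and footprints took up 32.1% and 31.9% of its bases. Csnk1g2, a casein kinase 1 isoform, had 15 and 12 footprints at chr10:80622001-80622700 (signals 4.18 and 8.22), with a midpoint 487 bp upstream of the TSS. Gtpbp6, a GTPase linked to mitochondrial ribosomes, had 12 and 16 at chr5:110107681-110108380. Windows of the Nsun2 and Csnk1g2 peaks are printed above. Cpeb2, a regulator of mRNA translation, had 12 and 13 at chr5:43232701-43233400, and Fem1c, a substrate receptor of an E3 ubiquitin ligase, had 12 and 13 at chr18:46525721-46526360. Fut9, the fucosyltransferase that makes the Lewis X glycan in brain, had 12 and 12 at chr4:25799601-25800260. Nfil3, a bZIP repressor coupled to the circadian clock, had 12 and 12 at chr13:52980181-52981120. At Fut9 and Nfil3 the replicate 1 signals, 1.70 and 1.76, were again below the median of the dense peaks.

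The 5 first-ranked peaks away from promoters lay 744 to 1516 bp from the nearest TSS. Their class and distances were taken from the midpoint of the replicate 1 peak. Upstream of Fbrs, at chr7:127477741-127478620 and 1018 bp before the TSS, an intergenic peak held 13 and 16 footprints with signals of 4.58 and 8.45. Upstream of Zc3h4, a zinc finger protein that limits transcription of noncoding RNA, an intergenic peak at chr7:16399561-16400220 held 15 and 10 footprints (signals 3.38 and 6.51), 1019 bp before the TSS. An intron of Fat3, a large cadherin-family protein of neurons, held 12 and 19 footprints in a wide peak at chr9:16499881-16501200. The replicate 2 peak there, 1780 bp wide, counted as a promoter peak by its own midpoint. An intron of Impact, an imprinted gene in mouse whose product restrains the kinase Gcn2, held 12 and 12 at chr18:12973081-12973820. An exon of Fjx1 held 11 and 11 at chr2:102450266-102451700, over 1435 and 1720 bp. At Fjx1 the footprints took up 6.48% and 6.34% of the peak, so its count came with width rather than packing.

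**Figure D5:**
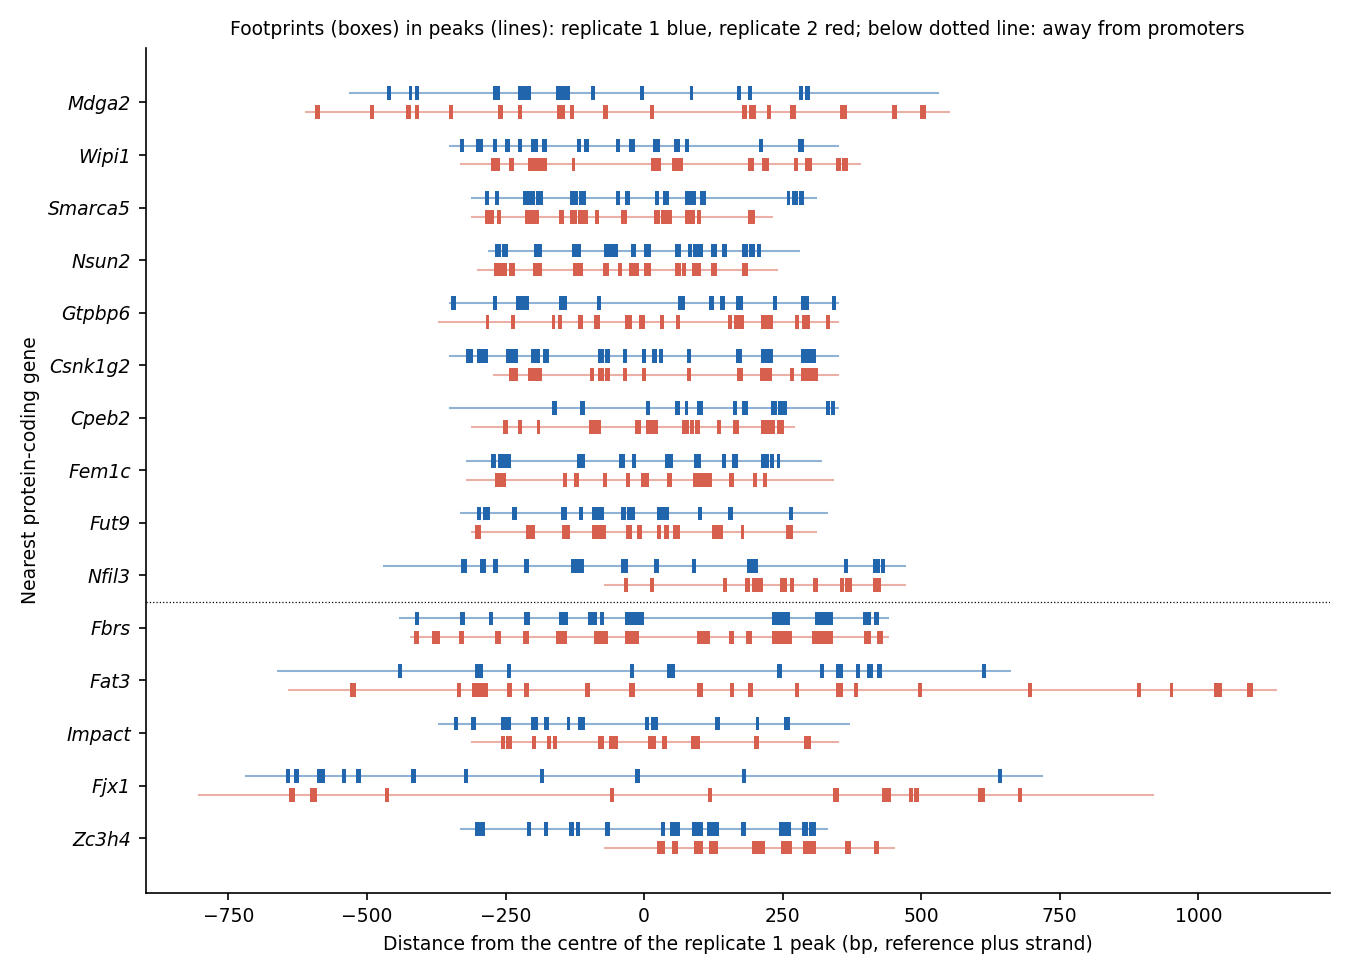
Positions of footprints (boxes) within the peaks (lines) of replicate 1 in blue and replicate 2 in red, for the 10 first-ranked promoter peaks and, below the dotted line, the 5 first-ranked peaks away from promoters by the replicate 1 midpoint; the horizontal axis is the distance in bp from the centre of the replicate 1 peak on the reference plus strand. Many boxes line up between the libraries, as at Smarca5 and Nsun2, whereas at Fjx1 11 and 11 boxes are spread over 1435 and 1720 bp.

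Lists of genes of known function were set beside the 1.79% of all protein-coding genes with a dense promoter peak in both libraries. Among genes with any promoter peak in both, this share was 3.47%. The lists differed widely in such peaks: 19 of 20 immediate early genes and 1 of 20 vascular markers had one in both, against 51.4% of all genes. With 16 to 20 genes per list, 1 gene moves a share by at least 5 percentage points, so counts of 0 or 1 say little. Of the 20 immediate early genes, which are transcribed within minutes of neuronal activity, 1 was dense in both, Jun, the AP-1 subunit (13 and 11 footprints, signals 4.26 and 7.50). Another 10 were dense in a single library, as were 1847 of all genes (8.89%), where all genes include those without a promoter peak. Fos, the other AP-1 subunit, held 4 and 13 footprints, Egr1, a zinc finger factor, 3 and 10, and Egr3 1 and 13. Junb and Jund held 7 and 9, and 6 and 8. The orphan nuclear receptor genes Nr4a2 and Nr4a3 held 1 and 8, and 9 and 6. Fosl2 held 9 and 2, Dusp1 8 and 4, and Ier2 4 and 8. Jun was named for being dense in both libraries and the others for being dense in 1. Its closer counts thus follow in part from this choice.

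Among 19 genes for factors that bind promoters, 3 were dense in both libraries. Nfya, a subunit of the CCAAT-binding factor NF-Y, held 11 and 13 footprints with signals of 5.14 and 10.2. Gabpb1, the partner of an ETS factor, held 11 and 10 (signals 1.97 and 3.57). Elf2, an ETS factor, had 12 and 12, but at different promoters of the gene, chr3:51277221-51277760 in replicate 1 and chr3:51340621-51341560 in replicate 2. Sp1 held 6 and 9 and Sp3 9 and 4, so each was dense in 1 library. Ctcf, the insulator protein gene, had 11 footprints in replicate 2 and no promoter peak in replicate 1.

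Of 19 genes of the transcription machinery 2 were dense in both, the RNA polymerase II subunit genes Polr2b (10 and 8 footprints) and Polr2i (8 and 8). Both peaks also lay within 500 bp of a TSS of another gene, Noa1 and Tbcb. The 16 CREB, ATF and CRTC genes had 1, the coactivator gene Crebbp (13 and 9), and the 20 clock genes had Nfil3. None was among the 18 housekeeping, 18 chromatin regulator, 19 respiratory chain or 20 proteasome genes, although 18, 16, 19 and 20 of these had a promoter peak in both. Every one of these open promoters thus fell short of 8 footprints in at least 1 library, and the median counts per list and library were 4 to 6.

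Of 18 genes for synaptic receptors and channels 1 was dense in both, Gria2, an AMPA receptor subunit gene (11 and 8 footprints, signals 2.11 and 3.51). Of 20 excitatory neuron markers it was Tle4, a corepressor of deep-layer cortical neurons (8 and 8, signals 5.63 and 9.56), in peaks of only 400 and 320 bp. Tbr1, a transcription factor of deep-layer neurons, held 4 and 11, and Slc17a6 of the same list 6 and 8. No inhibitory neuron, astrocyte, oligodendrocyte, microglia or vascular marker was dense in both. In a single library, Dlx2 of interneurons held 17 and Cnp of oligodendrocytes 10, both in replicate 2 and without a promoter peak in replicate 1. Of the astrocyte markers, Sox9 held 8 and 6 and Glul 8 and 0. Slc1a2, also of astrocytes, held 9 in replicate 2 and had no promoter peak in replicate 1. As a check of the tissue, 8 of 20 excitatory neuron, 3 of 20 inhibitory neuron, 9 of 20 astrocyte, 4 of 19 oligodendrocyte, 3 of 19 microglia and 1 of 20 vascular markers had a promoter peak in both libraries, where 51.4% of all genes did. Of genes of other tissues this was so for 0 of 20 liver, 2 of 20 skeletal muscle and 1 of 18 blood genes, and Ryr1 was the 1 of them with a dense peak, in replicate 2 (8 footprints).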

How the data were processed

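DNase-seq from 2 libraries of 1 group was analysed from the processed files on mm10, per the labels. The signal of a peak, a density, was normalized for read depth by the authors. The score of the deposited footprint list is 0.01 in every row, and the p-values deposited with the cleavage rates are FDRs of up to 0.05; nearly all bases of dense and comparison peaks had an FDR of 0.001 or less. Aligner, callers, thresholds and read depth: not given in the sources used here. Signals were compared within a library. Of the 2 peak lists per library, the shorter was used.

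Computed here, with Python 3.11.15, numpy 2.4.6 and pandas 2.3.3, were footprints per peak, TSS distances (GENCODE M21), composition and motif matches (GRCm38), and Wilson intervals. The code was tested on simulated data. Weighted medians are means of the class medians. Values per footprint (width, spacing, repeat, motif share and place around the TSS) pooled the comparison peaks without width weights. The members, gene lists and motifs were chosen with earlier results of these data known. Named peaks are the first 10 at promoters and 5 elsewhere by the lower of both counts, and up to 3 genes per list dense in both; list genes named as dense in 1 library were chosen after their values were seen. 1 gene list is not reported here. Alternatives changed the minimum count, the overlap rule, the peak list, the widths, the comparison set, the TSS window and the replicates. Matching on GC, leaving out thin classes or comparison peaks that touch a dense peak, and counting the other library's footprints in the same interval were added after the data were seen.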

Additional observations from a re-analysis of the deposited data

How the results depend on the processing

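The share of peaks that were dense (mean 3.01%) was 9.43% with at least 6 footprints, 0.925% with at least 10, 3.13% by footprint midpoints, 3.23% by any overlap and 1.78% in the longer list (3.01 to 3.02% leaving out a replicate). The difference in promoter share (29.2 points) was 41.5 in the longer list, 16.9 against peaks with 4 to 7 footprints, 6.20 with signal matched, 6.0 when that used only classes with at least 20 comparison peaks, and 15.5 with GC matched (20.9 to 37.5 leaving out a replicate). The log2 signal ratio (1.26) was 1.65 in the longer list and 0.70 against 4 to 7 footprints (1.07 to 1.45). The share of dense peaks that were dense in the other library (28.8%) was 41.8% with at least 6 footprints, 18.7% with at least 10 and 39.2% by footprints in the same interval (18.1 to 39.6% leaving out a replicate). Genes dense in both (371) were 1669 with at least 6 footprints and 69 with at least 10, and each replicate alone gave 893 to 1696. The causes were not tested. The differences in promoter share and signal kept their direction under all alternatives run. Classes above about 750 bp held few comparison peaks, the read depth is unknown, and 2 libraries with one donor label limit every statement on repeats. No paired analysis was possible because the labels give a single group.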
